A study of Rattus norvegicus with 2 samples.

Results

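The genes described here sense microbial or misplaced nucleic acid and carry the interferon response. They were chosen by gene symbol: the numbered IRF, Toll-like receptor, NLRP and STAT genes without Stat3, the interferon receptor genes Ifnar and Ifngr, the Ifi, Ifit, Ifitm, Isg, Oas and Mx genes, and Ddx58, Ifih1, Mavs, Myd88 and Eif2ak2. This rule found 84 of the 23282 genes in the deposited table. Their levels come from rat (Rattus norvegicus) embryonic stem cells of the DA-EC8/Rrrc line, a Dark Agouti strain line from the Rat Resource Center. The 2 libraries were both wild type and untreated, came from passage 30 with a karyotype labelled Normal, and were grown in 2i medium, which holds inhibitors of the kinases MEK and GSK3. No library came from cells given interferon or a microbial ligand, so the data give resting levels of 1 line and hold no contrast between conditions.

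Cells detect viral RNA with the helicases RIG-I (Ddx58) and MDA5 (Ifih1), which signal through the adaptor Mavs, and detect microbial products at membranes with Toll-like receptors, most of which signal through Myd88. These routes activate IRF transcription factors such as Irf3, which switch on interferon genes. Secreted interferon binds its receptors and activates STAT factors such as Stat2 together with Irf9, which bind the interferon-stimulated response element and raise a large set of antiviral effector genes. Pluripotent stem cells are known for a weak interferon response and for holding some antiviral effectors, such as IFITM proteins, without interferon.

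The deposited unit was RPKM, the reads of a gene divided by its length in kilobases and by the library total in units of 1000000. Steps in the values pointed to 2991184 reads behind replicate 1 and 3050685 behind replicate 2, so that 3 reads on a 2 kb transcript model are worth 0.501 and 0.492 RPKM, a floor for counting error only. Read numbers given below are the smallest that give the values as whole reads, and can be too small by a common factor. All 8 pluripotency markers were at 10 RPKM or more in both libraries, Pou5f1 (Oct4) at 591 and 577 RPKM. Of 11 macrophage and other blood cell markers none reached a mean of 1 RPKM. Their summed level was 2.12 RPKM in replicate 1 and 1.57 in replicate 2, and Itgam, Csf1r and Tyrobp were listed at 0. Of 10 fibroblast and feeder cell markers 3 reached 1 RPKM, with sums of 6.31 and 11.5 RPKM. In RNA from whole cultures, fewer cells that express a gene and less RNA per cell cannot be told apart. A gene listed at 0 may also be a failed estimate.

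The innate sensing and interferon genes split into a minority at moderate or high levels and a majority near 0. Detection was set at a mean of 1 RPKM or more, and 24 of the 84 passed it (28.6%), against 46.4% of all genes. A level of 10 RPKM or more was held by 11, against 29.4% of all genes, and 34 were listed at 0 in both replicates (40.5%), against 38.2%. The remaining 26 lay above 0 and below a mean of 1 RPKM. The median over all 84 was 0.170 RPKM in replicate 1 and 0.117 in replicate 2, against 0.556 and 0.516 RPKM over all genes. Among the 24 detected genes it was 10.4 and 8.35 RPKM, against 16.8 and 16.6 RPKM over all detected genes. With 1 group of samples these are descriptions, and no test was made of the difference.

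**Figure D1:**
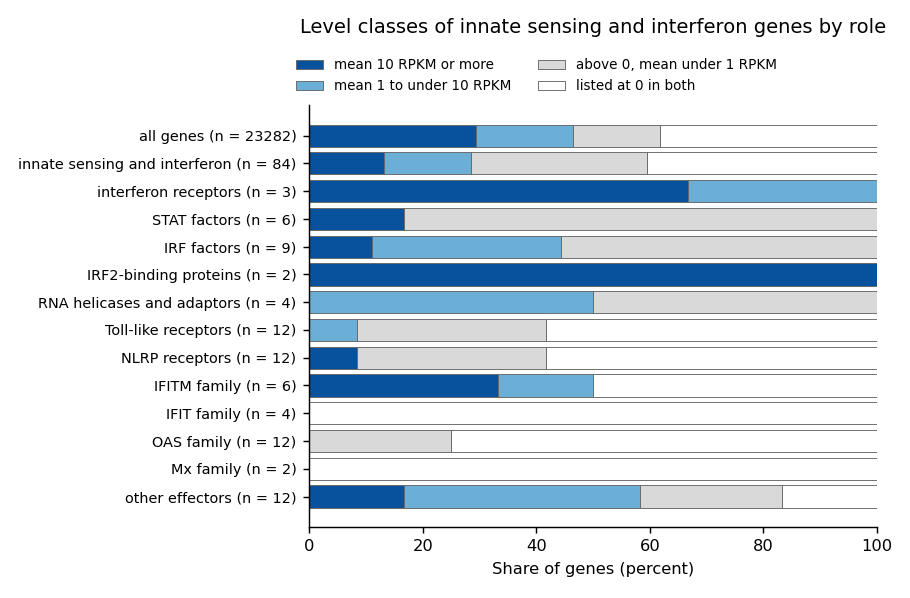
Share of genes (percent, horizontal axis) in 4 level classes, for all genes, for the 84 innate sensing and interferon genes together and for each role, with the number of genes in brackets. All 3 interferon receptor genes are detected, while the IFIT, OAS and Mx families hold no detected gene.

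Receptors for interferon were present. Ifnar1, a chain of the type I interferon receptor (Entrez gene 288264, rn5 chromosome 11, 35248575 to 35272235), was at 13.5 and 15.3 RPKM in replicates 1 and 2, a mean of 14.4 ± 1.24 RPKM (SD, n = 2). Ifngr1, the ligand-binding chain of the interferon gamma receptor, was at 15.7 and 13.9 RPKM. Its partner Ifngr2 was at 9.61 and 9.67 RPKM. Ifngr1 and Ifnar1 overlapped between the replicates, and Ifngr2 lay below both in each library. The second type I chain, Ifnar2, falls outside the symbol rule because the table lists it as LOC686326. Matched by Entrez identifier after its value was seen, it was at 6.31 and 3.91 RPKM, the lowest of the 4 receptor chains in both libraries.

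The transcription factors downstream of these receptors were uneven. Stat2 (Entrez gene 288774, chromosome 7, 2670243 to 2685671), which acts in the type I response, was at 14.4 and 17.1 RPKM. Irf9, the DNA-binding member of the same complex, was at 1.25 and 2.87 RPKM, for which the smallest whole read numbers were 6 and 14. Stat2 was thus above Irf9 in both libraries, and the Irf9 level rests on few reads. Other STAT genes were lower than Stat2. Stat6, which acts in interleukin 4 signalling, was at 0.634 and 1.12 RPKM, Stat5b at 0.650 and 0.382, Stat5a at 0.185 and 0.272, and Stat4 at 0.0830 and 0.225 RPKM. Of the 6 STAT genes 1 was detected (16.7%, against 46.4% of all genes).

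Among 9 IRF genes 4 were detected (44.4%, near the 46.4% of all genes), led by Irf3. Irf3, the factor that RNA and DNA sensors activate (Entrez gene 292892, chromosome 1, 102057008 to 102061802), was at 51.2 and 49.7 RPKM, a mean of 50.4 ± 1.05 RPKM (SD, n = 2) and above 90.5% of all genes. Its relative Irf7, which interferon induces and which amplifies the response, was at 0.512 and 0.335 RPKM, or 3 and 2 reads. The replicates did not overlap between the pair. Irf1, an activator induced by interferon gamma, was at 6.39 and 4.02 RPKM. Irf5 lay below 1 RPKM in both libraries at 0.876 and 0.469, Irf8 was at 1.05 and 0.257, Irf2 at 0.489 and 0.240, and Irf4 at 0.209 and 0 RPKM. Irf4, Irf5 and Irf8 are known mainly from blood cells, and Irf2 as a broadly expressed antagonist of Irf1.

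Proteins named for binding IRF2, or for their likeness to those, are not IRF factors but match the symbol rule. Irf2bpl was at 47.3 and 48.1 RPKM and Irf2bp1 at 18.3 and 19.9 RPKM. Another gene of this family, Irf2bp2, is listed as LOC679357 and was at 8.49 and 8.76 RPKM, also named after its value was seen. All 3 were above their namesake Irf2 in both libraries.

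The helicases Ddx58 and Ifih1 lay below their adaptor Mavs in both libraries. Mavs, the mitochondrial adaptor of both helicases (Entrez gene 311430, chromosome 3, 130273622 to 130287788), was at 6.25 and 7.02 RPKM. Ddx58 was at 0.762 and 1.42 RPKM, for which the smallest read numbers were 10 and 19. Ifih1 was listed at 0 in replicate 1 and at 0.0841 RPKM, or 1 read, in replicate 2. Other genes whose products bind double-stranded RNA in the cytoplasm were mixed. The mean was 7.20 RPKM for Eif2ak2 and 7.10 RPKM for Dhx58, against 6.63 RPKM for Mavs. Eif2ak2 lay above Mavs in replicate 1 only, at 7.84 and 6.56 RPKM. Dhx58 lay above Mavs in replicate 2 only, at 5.64 and 8.56 RPKM. None of the 12 OAS genes was detected. Myd88, the adaptor of most Toll-like receptors, was at 0.155 and 0.152 RPKM, 1 read in each library. The closeness of such values reflects equal read numbers and not precision. Tmem173, which encodes the DNA response adaptor STING, is listed under the placeholder RGD1562552. It was at 1.64 and 1.61 RPKM, named after its value was seen.

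Toll-like receptor genes were near 0 with 1 exception. Tlr5, the receptor for bacterial flagellin (Entrez gene 289337, chromosome 13, 106310984 to 106315238), was at 5.66 and 6.01 RPKM, a mean of 5.83 ± 0.249 RPKM (SD, n = 2). Its gene model has the length of its locus, 4255 bp, and the values correspond to 72 and 78 reads. Of the other 11 genes, Tlr6 (0.371 and 0.121 RPKM), Tlr1 (0.142 and 0), Tlr2 (0.129 and 0.126) and Tlr3 (0.0987 and 0.0968) rested on 1 to 3 reads per library where above 0. Tlr4, Tlr7, Tlr8, Tlr9, Tlr10, Tlr11 and Tlr12 were listed at 0 in both. Tlr5 thus stood above the next receptor by a wide margin in each library. Its adaptor Myd88 rested on 1 read in each.

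Of 12 NLRP genes, whose products include inflammasome sensors and proteins of the oocyte and early embryo, only Nlrp4 was detected. That is 8.33%, against 46.4% of all genes. Nlrp4 (Entrez gene 499069, chromosome 1, 73062798 to 73100694) was at 37.7 and 35.5 RPKM, a mean of 36.6 ± 1.54 RPKM (SD, n = 2), above 87.0% of all genes. Nlrp4f followed at 0.798 and 0.783 RPKM. Nlrp3, the best known inflammasome sensor, was at 0.260 and 0.255 RPKM, Nlrp12 at 0.252 and 0.191, and Nlrp5, a maternal gene of the egg, at 0 and 0.112 RPKM. Nlrp1a, Nlrp1b, Nlrp4a, Nlrp4b, Nlrp6, Nlrp9 and Nlrp10 were listed at 0 in both. Members of the Nlrp4 group resemble each other in sequence, and how reads that fit several places were counted is not given in the sources used here, so the split among them is uncertain.

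**Figure D2:**
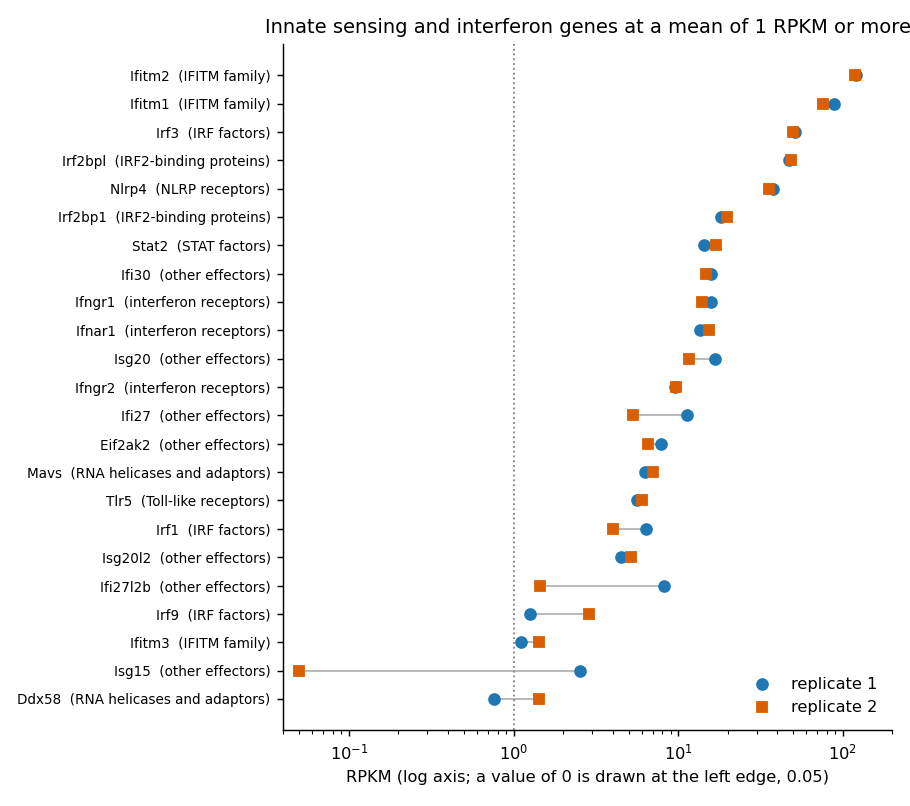
RPKM (log axis) of the detected genes named in the text, circles for replicate 1 and squares for replicate 2, with the role in brackets and a dotted line at 1 RPKM. Ifitm2 and Ifitm1 are highest, and Isg15 is the only one of them listed at 0 in a replicate.

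The interferon effectors held both the highest genes of the group and its emptiest families. IFITM proteins sit in membranes and block virus entry. Ifitm2 (Entrez gene 114709, chromosome 1, 220671382 to 220672562) was at 120.3 and 119.1 RPKM, a mean of 119.7 ± 0.842 RPKM (SD, n = 2), above 96.9% of all genes. It was the highest of the 84 in both libraries. Ifitm1 (Entrez gene 293618, chromosome 1, 220687081 to 220689004) was at 88.6 and 75.6 RPKM, a mean of 82.1 ± 9.18. Ifitm3, which lies next to them, was at 1.11 and 1.42 RPKM. Ifitm5 and Ifitm6 of the same cluster and Ifitm7 on chromosome 11 were listed at 0. The values of Ifitm1, Ifitm2 and Ifitm3 did not come out as whole reads for any gene model up to the locus length. This was not particular to them: no whole reads were found for Irf3, Stat2, Ifngr1, Isg20l2, Nlrp4, Nlrp12 and Stat4 either. Similar copies may share reads, and the split among the 3 is uncertain.

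Of 12 other effectors 7 were detected (58.3%, against 46.4% of all genes). All 12 lay below Ifitm1 and Ifitm2 in both libraries. Ifi30, a lysosomal thiol reductase, was at 15.9 and 14.8 RPKM. Isg20, an exonuclease that degrades RNA, was at 16.8 and 11.5 RPKM. Eif2ak2, the kinase PKR that halts translation on double-stranded RNA, was at 7.84 and 6.56 RPKM. Isg20l2, a nucleolar relative of Isg20 that acts in ribosomal RNA processing, was at 4.50 and 5.16 RPKM. Isg15, the ubiquitin-like modifier that is a standard marker of an interferon response, was at 2.52 RPKM in replicate 1, which corresponds to 5 reads in a model of 663 bp, and listed at 0 in replicate 2. Ifi35 was at 0.312 and 1.53 RPKM, or 1 and 5 reads, Ifi47 at 0.357 and 0.175, and Ifi44l at 0 and 0.152 RPKM. Ifi44 and Ifi204 were listed at 0.

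Whole effector families were at or near 0. The 4 IFIT genes, which bind foreign RNA, were Ifit1, Ifit1lb, Ifit2 and Ifit3, and all were listed at 0 in both replicates. The GTPase genes Mx1 and Mx2 were listed at 0 as well. Of 12 OAS genes, which make the activator of RNase L or are related to those that do, 9 were listed at 0 in both. Oasl was at 0.675 and 0.166 RPKM, Oas1i at 0.203 and 0, and Oasl2 at 0.191 and 0 RPKM, on 4 reads at most. Several Oas loci overlap on the table's coordinates, such as Oas1a and Oas1h, so reads could be assigned to more than 1 of them.

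Signalling genes (receptors, STAT and IRF factors) and effector genes were compared as lists. Of 18 signalling genes 8 were detected (44.4%), near the 46.4% of all genes. None of the 18 was listed at 0 in both replicates, against 38.2% of all genes. Of 36 effector genes 10 were detected (27.8%) and 20 were listed at 0 in both (55.6%). The signalling median was 0.962 and 1.08 RPKM, and the effector median 0 in each library. On the log2(RPKM + 1) scale the medians differed by 0.97 and 1.06 in replicates 1 and 2, a mean of 1.01 ± 0.06 (SD, n = 2). The sign depended on the genes listed at 0: without them the difference was -0.71 ± 0.64. With these left out the effector median was the higher, by little more than the spread between replicates.

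Genes of these families often lie side by side, and neighbours differed widely in level. With members less than 250 kb apart taken as 1 cluster, 14 clusters held 43 of the 84 genes, 8 of them detected, against 16 detected of 41 outside clusters. The detected share over all genes was 46.4%. Undetected Oas and Ifit genes are among the 43, and a part of position in these counts was not tested. The Oas cluster on chromosome 12 (43019554 to 43225332) had 9 genes, of which 8 were listed at 0 and none detected. The Ifit cluster on chromosome 1 (260116148 to 260167655) had none detected of 4. Ifnar1 and Ifngr2 on chromosome 11 were both detected. Nlrp4 lies between Nlrp5 and Nlrp9, which were at or near 0.

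**Figure D3:**
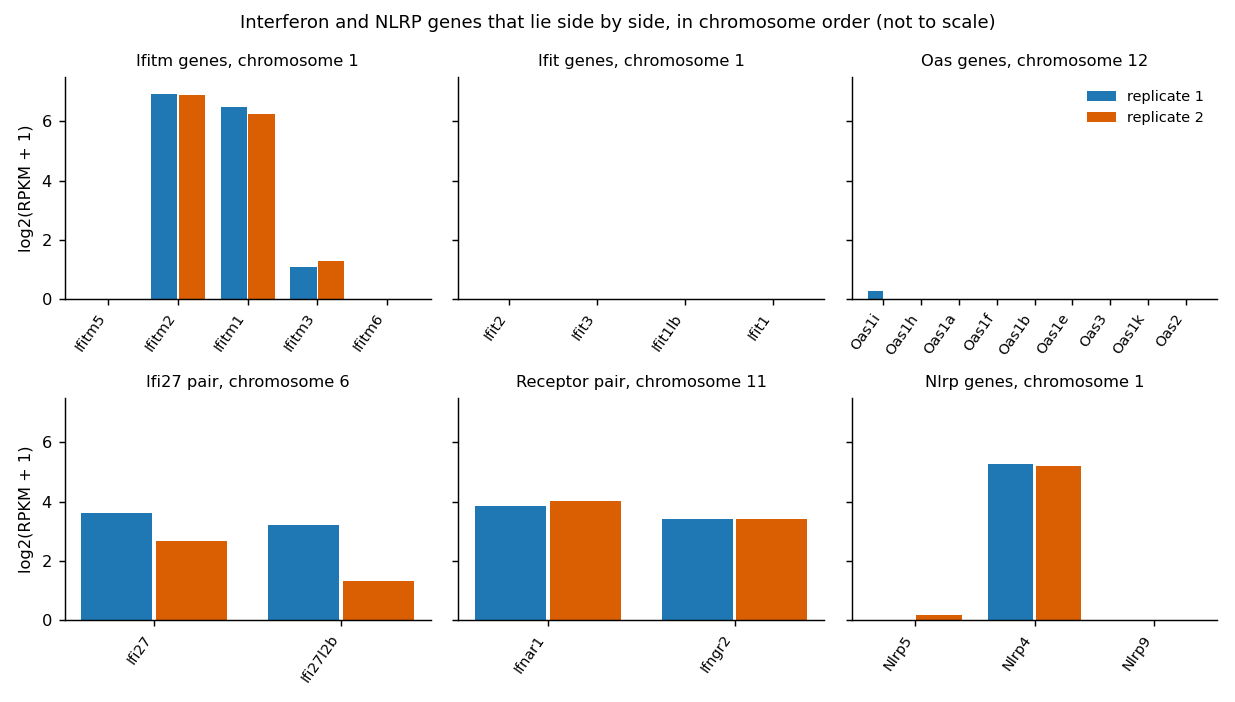
Level in log2(RPKM + 1) of neighbouring genes in chromosome order, 1 bar per replicate, with equal spacing that does not show distance. Ifitm2 and Ifitm1 stand beside Ifitm3, at 1.42 RPKM or less, and neighbours at 0, and the Ifit and Oas panels are empty but for Oas1i in replicate 1.

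Promoter windows were searched for the 2 classical interferon motifs, to set the sequence beside the level. RefSeq windows of 300 bases on the GRCr8 build, 250 before the start and 50 after, were matched by Entrez identifier for 68 of the 84 genes. The core of the interferon-stimulated response element, GAAA then NN then GAAA on either strand, was found in 20 of them (29.4%), against 4.12% of the 27457 genes with a window. It was found in 5 of 19 detected genes with a window and in 8 of 25 listed at 0. Of the 20 genes with a match 5 were detected (25.0%), and of the 48 without one 14 (29.2%). Among all table genes with a window, 233 of 592 with the motif (39.4%) and 54.9% of those without were detected. The gamma-activated site TTCNNNGAA, which reads the same on both strands, was found in 14 of the 68 (20.6%), against 9.39% of all genes with a window. Irf1 has it 142 bases before the start, as TTCCCCGAA. Matches of the 2 motifs overlap in Myd88, and matches of the response element overlap each other in Oas1a, Oas1b and Oas1i. A match describes the letters of the window and does not show a bound factor.

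The 120 bases before the start of 6 genes are shown because the same motif stands in front of genes at very different levels. Capitals mark the match to this core or its reverse complement, and each sequence runs 5′ to 3′ along the gene. The windows on GRCr8 are chr1:205482349-205482468 (minus strand) for Ifitm2, chr1:205541759-205541878 (minus) for Ifitm3, chr1:142239939-142240058 (plus) for Isg20, chr6:128355192-128355311 (plus) for Ifi27, chr1:241527206-241527325 (plus) for Ifit3 and chr12:41330346-41330465 (plus) for Oas1a.
Ifitm2: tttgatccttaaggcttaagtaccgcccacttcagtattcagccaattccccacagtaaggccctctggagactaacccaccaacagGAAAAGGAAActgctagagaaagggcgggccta
Ifitm3: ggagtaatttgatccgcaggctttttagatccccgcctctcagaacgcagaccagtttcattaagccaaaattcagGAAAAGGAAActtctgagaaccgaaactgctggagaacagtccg
Isg20: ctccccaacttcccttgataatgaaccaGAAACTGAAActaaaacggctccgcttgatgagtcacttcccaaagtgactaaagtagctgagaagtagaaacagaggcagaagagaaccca
Ifi27: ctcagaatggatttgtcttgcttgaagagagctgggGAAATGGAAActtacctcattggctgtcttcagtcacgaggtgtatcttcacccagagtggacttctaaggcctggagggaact
Ifit3: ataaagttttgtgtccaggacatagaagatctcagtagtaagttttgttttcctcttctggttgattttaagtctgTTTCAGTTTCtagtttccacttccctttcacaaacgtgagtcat
Oas1a: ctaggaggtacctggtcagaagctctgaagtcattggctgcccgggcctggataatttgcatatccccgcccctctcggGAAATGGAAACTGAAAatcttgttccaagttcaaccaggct

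Ifitm2 and Ifitm3 carry the same match, GAAAAGGAAA, 33 and 44 bases before the start, at means of 119.7 and 1.26 RPKM. As given above, the split of reads between these copies is uncertain. Ifitm7 carries it 98 bases before the start and was listed at 0. Oas1a holds overlapping matches and was listed at 0, as was Ifit3, while Isg20 with 1 match was at a mean of 14.2 RPKM.

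The replicates resembled each other for most detected genes, and the exceptions rested on few reads. Of the 24 detected genes 2 differed over 2-fold in RPKM + 1, against 0.721% of all detected genes. Both were among the 13 with a mean of 1 to under 10 RPKM, where the share over all genes was 1.94%. Among the 11 at 10 RPKM or more the largest difference was 1.42-fold, in Isg20. The 2 genes were Ifi27l2b, at 8.15 and 1.45 RPKM or 11 and 2 reads, and Isg15. Ifi27, which lies beside Ifi27l2b on chromosome 6 and like it encodes a small interferon-inducible membrane protein, was at 11.3 and 5.33 RPKM, or 27 and 13 reads. Both genes of the pair were thus higher in replicate 1.

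Of the detected effectors 8 of 10 were higher in replicate 1, and of the detected signalling genes 5 of 8 were higher in replicate 2. Over all 24 genes 12 were higher in each, with a median log2 ratio of replicate 2 to replicate 1 of -0.003, against 45.9% of all detected genes higher in replicate 2. The summed fibroblast and feeder markers given above were higher in replicate 2, and the summed blood cell markers slightly higher in replicate 1. Their part in these differences was not tested.

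**Figure D4:**
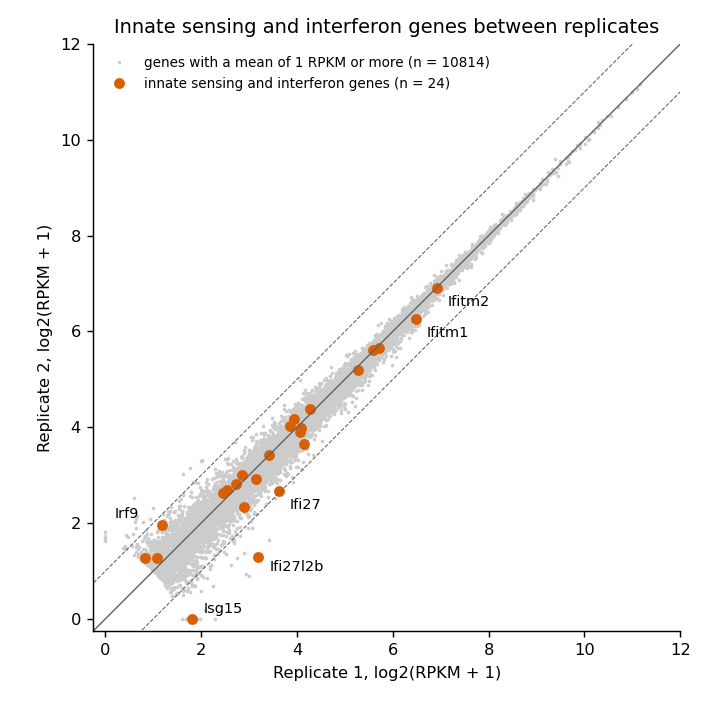
Replicate 1 against replicate 2 in log2(RPKM + 1), grey for the 10814 genes detected in all and orange for the 24 innate sensing and interferon genes among them, with dashed lines at a 2-fold difference. Ifi27l2b and Isg15 lie outside the lines, and Ifi27 lies just inside.

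Genes that act with these families were described from lists chosen by name, with earlier results of these data known. Over all genes 46.4% were detected and 38.2% were listed at 0 in both replicates. Interferon genes themselves were not detected: all 11 with a row, Ifnb1 and Ifng among them, were listed at 0 in both replicates. Of 13 receptor kinases, partner chains and negative regulators 12 were detected. The phosphatase genes Ptpn11 (52.2 and 49.8 RPKM), Ptpn1 (41.1 and 37.2) and Ptpn2 (25.0 and 25.0) had the highest means, although Pias1 (21.5 and 25.8) was above Ptpn2 in replicate 2. Usp18, an interferon-induced brake on the receptor, was listed at 0. The kinase genes Jak1, at 22.6 and 23.4 RPKM, and Tyk2, at 7.74 and 9.18 RPKM, which serve the type I receptor, are named here after their values were seen.

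Of 26 adaptors, kinases and other sensors 14 were detected (53.8%, against 46.4% of all genes). Irak1, a kinase below Myd88, was at 36.4 and 33.6 RPKM. Tbk1, the kinase that phosphorylates Irf3, was at 24.3 and 29.5 RPKM, and the NF-kappaB kinase gene Chuk at 26.7 and 26.6. Those listed at 0 in both were Zbp1, Aim2, Nod2, Cd14 and Ikbke. At 10 RPKM or more were 7 of the 26, near the share of all genes, 29.4%. They were Irak1, Tbk1, Chuk, Rela, Traf3, Ikbkg and Nfkb1, which are kinases, adaptors or NF-kappaB subunits and no sensors. Dhx58, a helicase related to Ddx58 that was picked out once its level was known, was at 5.64 and 8.56 RPKM.

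Of 28 further interferon-stimulated genes 7 were detected and 13 were listed at 0 in both, Cxcl10 and Rsad2 among them. Zc3hav1, the zinc finger antiviral protein that targets CpG-rich viral RNA, stood apart at 127.9 and 152.2 RPKM, above every one of the 84 genes. Pml, of the nuclear bodies, was at 12.6 and 12.4 RPKM, and the GTPase gene Gbp2 at 2.79 and 2.05 RPKM. Without Zc3hav1 and Pml no gene of this list reached a mean of 10 RPKM.

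Of 8 listed genes for enzymes that can remove or edit the cell's own immunostimulatory nucleic acid, 7 were at 10 RPKM or more. The share over all genes was 29.4%. Rnaseh2a, of the enzyme that cuts RNA paired with DNA, was at 46.7 and 39.7 RPKM, the RNA editing enzyme gene Adar at 39.8 and 43.1, and Dicer1 at 39.4 and 36.6 RPKM. The DNA exonuclease gene Trex1 was lowest, at 0 and 1.61 RPKM. Of 8 inflammasome partners only Il18 was detected, at 1.89 and 0.926 RPKM, followed by Casp4 at 0.532 and 0.261 and the adaptor gene Pycard at 0.574 and 0 RPKM, with Casp1 listed at 0.

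**Figure D5:**
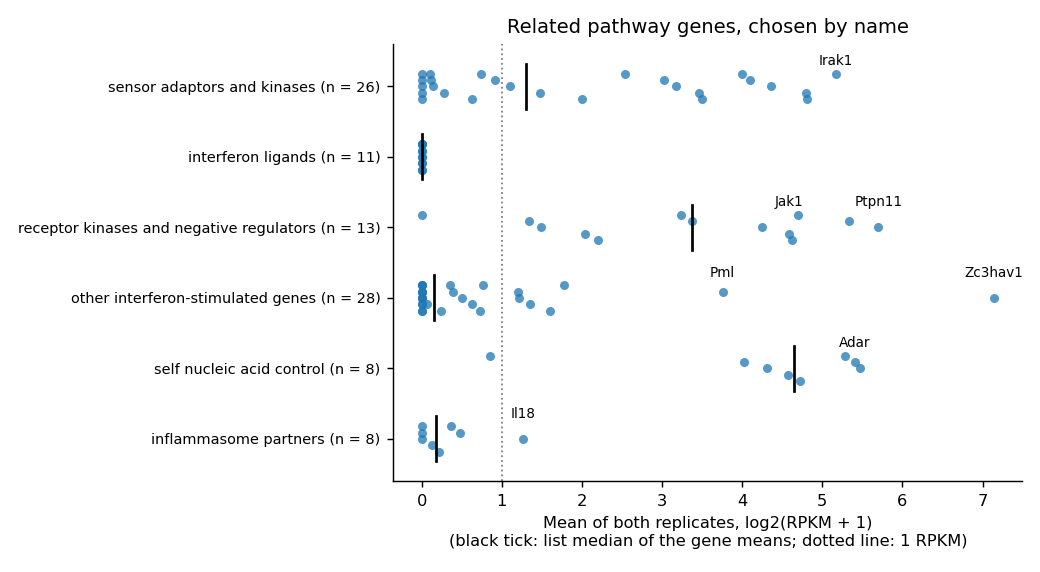
Mean of both replicates in log2(RPKM + 1) for the genes of 6 related lists, 1 point per gene, with a black tick at the list median and a dotted line at 1 RPKM. The 11 interferon genes are all at 0, and Zc3hav1 is far above the other interferon-stimulated genes. Of 8 genes that control the cell's own nucleic acid 7 are at 10 RPKM or more, against 29.4% of all genes.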

How the data were processed

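RPKM values, as the authors computed and deposited them, stood in 1 table with a column for each library, matched by sample title. The tools named in the submitters' processing notes are TopHat 1.4.0 and CASAVA 1.8, with the builds rn5 and Rnor_5.0. For the counting tool, its use of strand and its treatment of multi-mapped reads, the method is not given in the sources used here. Rows of the same Entrez identifier were summed, which left 23282 genes from 23716 rows, and none of the 84 genes had more than 1 row. Columns of other samples numbered 0. Levels are RPKM per replicate, with means ± SD over 2 replicates, and differences use log2(RPKM + 1). With 1 group no test was made. The design calls the samples biological replicates and names no separate cultures, so their spread may be technical. The genes and lists were chosen with earlier results of these data known.

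Read totals are those that made the most rows with a locus under 6000 bp and over 0.5 RPKM come out whole, taking the locus as gene model (405 of 2287 rows in replicate 1, 392 of 2255 in replicate 2). Reads of a gene come from the shortest model of 100 bp or more, up to the locus length or 20000 bp, that gave whole reads, within 6e-07/RPKM + 2e-07 per read. They were found for 40 of the 50 genes above 0. Every gene with a mean of at least 1 RPKM is named, except where it is not reported here, and of each related list the 3 highest and the lowest, or 1 of those at 0. Symbols were matched to RefSeq by Entrez identifier for 83 of the 84. Alternatives were other detection minimums, a pseudocount of 0.1, each replicate alone, rescaled libraries, the highest row per gene, other membership and list means. Software was matplotlib 3.10.9, scipy 1.17.1, pandas 2.3.3 and numpy 2.4.6 under Python 3.11.15.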

Additional observations from a re-analysis of the deposited data

How the results depend on the processing

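The count of 24 detected genes ran from 20 (minimum of 3 RPKM) to 34 (minimum of 0.3 RPKM), and was 24 and 26 with 1 replicate each. The share of all genes was not taken under these settings, so the comparison with all genes holds for the main setting only. Rescaling each library to a sum of 1000000 multiplies all values by 2.28 and 2.30. It gave 20 genes at 10 RPKM or more in place of 11 (37.3% of all genes), a median of 0.327 RPKM in place of 0.143 (1.23 RPKM over all genes), 5 genes over 2-fold apart in place of 2, and a signalling minus effector difference of 1.73 in place of 1.01. That difference was 3.48 with a pseudocount of 0.1, 0.84 with list means and -0.71 without genes listed at 0, which also raised the median to 0.958 RPKM. Genes over 2-fold apart numbered 1 with a minimum of 3 RPKM and 4 with a pseudocount of 0.1 (Ifi27 and Irf9 added), where 2.38% of all detected genes were. That share was not taken for the rescaled libraries or the minimum of 3 RPKM. With 9 genes under older symbols added to the 84, a choice made after the data were seen, 27 were detected and 40 were listed at 0. No paired analysis was possible because there is 1 group. At about 3 reads per gene, levels under 0.5 RPKM do not separate low from absent expression.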

Other observations

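Genes beside the Ifi27 pair differed less between the replicates than the pair, or in the other direction. Ddx24, on one side, was at 53.5 and 54.4 RPKM and Otub2 beyond it at 6.26 and 5.90 RPKM, while RGD1560932 on the other side was at 0.886 and 1.54 RPKM. Stat3, which was left out of the gene group by its rule, lies next to Stat5a on chromosome 10 and was at 28.0 and 32.1 RPKM, against 0.185 and 0.272 RPKM for Stat5a.

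Beside Ifnar2, Irf2bp2 and the STING gene, 6 further genes that RefSeq names by these families stood under older symbols: Nlrp2, Nlrp14, Nlrp4al1, Tlr13, Ifitm10 and a second Nlrp4b. All 6 were listed at 0 in both replicates.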
